A study of Mus musculus with 12 samples.

Results

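Potassium channel genes were followed in the mouse cerebral cortex from early embryo to newborn. The set holds every gene whose mouse symbol starts with Kcn, leaving out Kcnq1ot1 and 4 antisense transcripts: 94 genes of the 50600 in the files. Of these, 82 had enough reads to be tested for a difference between ages. The mice were C57BL/6, and cortical RNA was sequenced at embryonic days 11, 13 and 17 (E11, E13, E17) and on postnatal day 1 (P1). There were 3 libraries per age, named A, B and C, and per the labels each holds polyadenylated RNA from 1 animal, with a separate litter for each of the 3 libraries at an age. The labels name no treatment, no transgene and no sort of the cells. A level is given in CPM, reads per 1000000 reads of a library after TMM scaling, which evens out library composition. A change is a log2 fold change from the earlier to the later age, and a gene rose or fell where edgeR's adjusted p was under 0.05.

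Potassium channels let potassium ions leave or, for some, enter a cell, and so set the resting voltage of a neuron, end its action potentials and fix how often it can fire. Voltage-gated channels (Kv) open on depolarisation and are built of 4 pore subunits, often with auxiliary subunits inside the cell or in the membrane. Inward rectifiers and 2-pore-domain leak channels act near rest, in neurons, glia, vessels and dividing cells, and a last group opens when calcium or sodium rises inside the cell. In the cortex, the span from E11 to P1 covers the change from a sheet of dividing progenitors to layers of young neurons that start to fire.

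Totals were 28173745 to 45858712 reads per library. Summed markers of cortex (5 genes, such as Neurod6) were 430 to 485 CPM at E11, 1090 to 1370 CPM at E13, 1960 to 2280 CPM at E17 and 1620 to 1740 CPM at P1. The neuronal list of 6 genes was 758 to 945 CPM at E11, 1610 to 1900 CPM at E13, 7350 to 7420 CPM at E17 and 7830 to 8210 CPM at P1, and the list of 4 genes of dividing cells was 2110 to 2280 CPM at E11, 1870 to 2080 CPM at E13, 262 to 360 CPM at E17 and 109 to 127 CPM at P1. Summed markers of meningeal fibroblasts (5 genes) were 528 to 732 CPM at E11 and 427 to 588 CPM at E13. At E17 they were 9.47 to 11.8 CPM, and at P1 38 CPM in library A, 8.89 CPM in B and 11.2 CPM in C. The part of this tissue in the changes of the Kcn genes was not tested. Within an age, some libraries stood apart in markers of other cells. The choroid plexus list of 5 genes was 140, 256 and 86 CPM at E11 and 374, 331 and 38.2 CPM at E13, in the order A, B, C, and was lowest in the C libraries. At E11 Ttr had 81.1, 161 and 28.6 CPM and Clic6 31.4, 49.4 and 25 CPM. Otx2 (22.8, 39.4 and 26.9 CPM) and Folr1 (4.49, 5.95 and 5.29 CPM) were lowest in E11 A instead. The interneuron list of 7 genes was 6.47, 3.89 and 42.6 CPM at E11 and 20.6, 26.8 and 59.9 CPM at E13, highest in the C libraries. Its members did not agree. The excess in C was that of Gad1, Gad2, Dlx1 and Dlx2, such as Dlx1 with 1.95, 0.118 and 16 CPM at E11. Lhx6 was lowest in C at both ages, with 2.04, 2.83 and 1.75 CPM at E11 and 6.64, 7.83 and 5.49 CPM at E13. The striatum list of 5 genes was 82.3, 45 and 62.6 CPM at E17, highest in A. Counts are therefore also given with E11 C, E13 C and E17 A removed, an alternative chosen after seeing the data. That alternative keeps E13 B, which also stood apart. At E13 the neuronal list was 1610, 1900 and 1710 CPM and the cortex list 1090, 1370 and 1110 CPM, both highest in B. Their members Stmn2, Syt1 and Emx1 were not highest in B. Without E13 B alone, 35 Kcn genes changed from E11 to E13, against 43 with all libraries. Over all genes, 5562 changed without it, against 7155. These are bulk samples, in which fewer cells of a type and less RNA per cell cannot be told apart.

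Most potassium channel genes were higher in the later cortex. Of the 82 tested genes, 50 had their highest mean at P1, 20 at E17, 3 at E13 and 9 at E11, and over all 17847 tested genes those shares were 33.1%, 17.3%, 14.4% and 35.3% of genes. The summed level of all 94 genes was 343 ± 18.8 CPM at E11, 681 ± 89.5 CPM at E13, 1930 ± 46.2 CPM at E17 and 2440 ± 104 CPM at P1 (SD, n = 3 each), and the libraries of the ages did not overlap. From E11 to E13, 39 genes rose and 4 fell, or 52.4%, against 40.1% of all tested genes, of which 22.6% rose and 17.5% fell. From E13 to E17, 62 rose and 6 fell (82.9% in all, against 73.8% of all genes, with 36.8% up and 37% down). From E17 to P1, 37 rose and 11 fell (58.5% in all, against 49.9% of all genes, with 24% up and 25.9% down). The whole span from E11 to P1 gave 68 rises and 9 falls (93.9% in all, against 82.3% of all genes, with 40.5% up and 41.8% down). The medians of the tested potassium channel genes were 0.55, 1.83, 0.38 and 2.89 on the log2 scale in these 4 comparisons, beside 0, -0.04, 0 and -0.04 over all tested genes. Libraries of the compared ages did not overlap for 46, 67, 54 and 75 of the 82 genes, and for 51.8%, 76.1%, 62.4% and 84.5% of all tested genes. Comparisons that follow each other share the libraries of 1 age. A gene passed the count filter if it was high at any age, so these shares describe the tested genes and not the whole family.

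In the test across the 4 ages, 78 of 82 genes changed, beside 90.2% of all tested genes. The 4 that did not pass were Kcnq1 (adjusted p = 0.959), Kcne4 (0.495), Kcna5 (0.133) and Kcnj14 (0.0862). In the same test Kcna5 passed without E11 C (adjusted p = 0.0323), and Kcnj14 passed without E17 B (0.0128) and when scaled only by total reads (0.0424). The 12 genes too low to test had 60 reads or fewer over the 12 libraries: Kcnmb1 (60), Kcne1 (27), Kcng4 (16), Kcnv2 (7), Kcnk7 (4), Kcna7, Kcnj1 and Kcnk15 (3 each), Kcna10, Kcnk18 and Kcnmb3 (1 each) and Kcnk16 (0). Of the calls, 33 of 43, 64 of 68, 38 of 48 and 76 of 77 in the 4 comparisons, in the order above, held in each of 12 runs that left out 1 library. With E11 C, E13 C and E17 A removed, 41, 64, 44 and 78 genes changed, and 35, 64, 42 and 77 of these were among the calls from all 12 libraries.

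**Figure D1:**
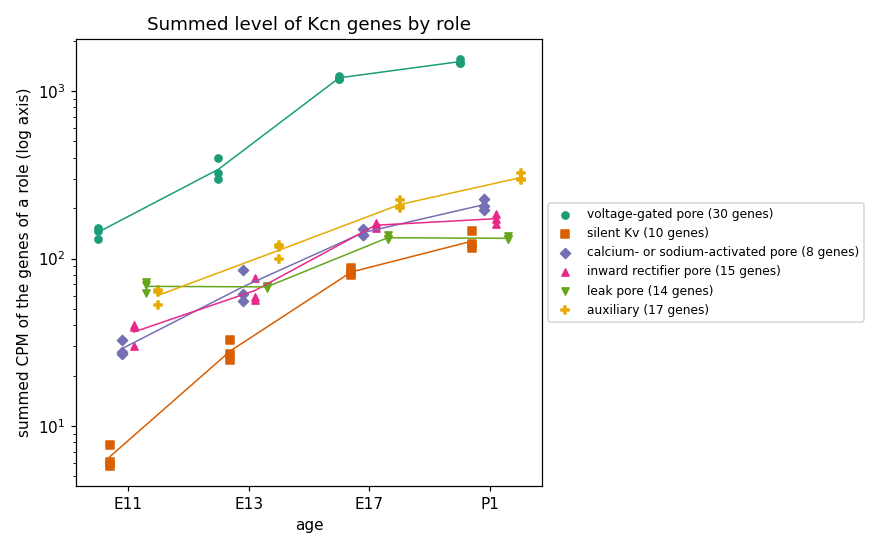
Summed CPM (log axis) of the Kcn genes of each role by age, with 1 point per library and a line through the means of the 3 libraries. The voltage-gated sum went from 143 CPM at E11 to 1500 CPM at P1, and the leak channel sum from 68.2 to 132 CPM.

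Levels of different genes were set against each other per kilobase of exon, as CPM per kb. At E11 the highest was Kcnk5, a leak channel, at 9.15 ± 0.318 CPM per kb, which was 12.8% of the sum over the family. Kcne1l followed at 4.28 ± 0.94 and Kcna3 at 4.15 ± 0.538 CPM per kb (SD, n = 3 each), and the libraries of Kcne1l and Kcna3 overlapped. At E13 Kcnip3 was first at 8.58 ± 0.676 CPM per kb, with Kcne1l at 7.9 ± 0.3, and again the libraries overlapped. Kcnk2 had 13.3 ± 0.636 CPM per kb at E17, and Kcnmb4 had 18.7 ± 1.4 CPM per kb at P1. Kcnk5 was no longer among the first 10 genes at E17 or P1.

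Promoter windows are shown for 3 genes at the ends of this pattern: Kcnip2 and Kcnk5, the largest rise and the largest fall from E11 to P1 among genes of at least 10 CPM at some age that have 1 window in the table and at most 30 bases of annotated exon in it, and Kcnj13, a gene known from choroid plexus. Kcnip2 was not the largest rise of the family: Kcnh3 (7.27) and Kcnma1 (6.65), among others, rose more over this span and are not shown. The sequences are the 250 bases before the gene start, from RefSeq's GRCm38.p6 annotation, 5′ to 3′ on the strand of the gene, which is the minus strand for these 3. Capitals mark GGGCGG or its reverse complement CCGCCC, the core of a GC box, and TATAAA, the core of a TATA box on the strand of the gene.
Kcnip2 (chr19:45816064-45816313): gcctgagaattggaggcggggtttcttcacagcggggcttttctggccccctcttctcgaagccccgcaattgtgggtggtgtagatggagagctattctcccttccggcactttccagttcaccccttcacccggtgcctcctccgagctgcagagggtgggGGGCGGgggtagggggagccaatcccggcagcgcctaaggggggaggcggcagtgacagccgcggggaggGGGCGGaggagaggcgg
Kcnk5 (chr14:20181783-20182032): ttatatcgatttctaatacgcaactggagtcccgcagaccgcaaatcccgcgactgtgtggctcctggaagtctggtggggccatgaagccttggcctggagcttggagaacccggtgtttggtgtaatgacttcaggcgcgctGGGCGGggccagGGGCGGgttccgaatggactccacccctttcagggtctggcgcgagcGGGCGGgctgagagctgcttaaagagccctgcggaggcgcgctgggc
Kcnj13 (chr1:87394730-87394979): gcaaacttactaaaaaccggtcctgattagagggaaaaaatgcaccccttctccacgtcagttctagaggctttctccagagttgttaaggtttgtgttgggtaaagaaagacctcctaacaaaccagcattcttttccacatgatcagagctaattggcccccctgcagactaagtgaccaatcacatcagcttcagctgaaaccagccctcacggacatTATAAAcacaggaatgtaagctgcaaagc
Kcnip2, which rose, and Kcnk5, which fell, had 2 and 3 matches to GGGCGG on either strand and 15 and 19 CG pairs, and no TATAAA. Kcnj13 had 3 CG pairs, 1 TATAAA and no GGGCGG. Of 32851 windows of this length in the table, 32.7% held GGGCGG on either strand and 7.59% held TATAAA, with a median of 6 CG pairs. The table matched 69 of the 94 Kcn genes with 94 windows, of which 42 held GGGCGG and 3 held TATAAA. A match is a match of letters only.

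**Figure D2:**
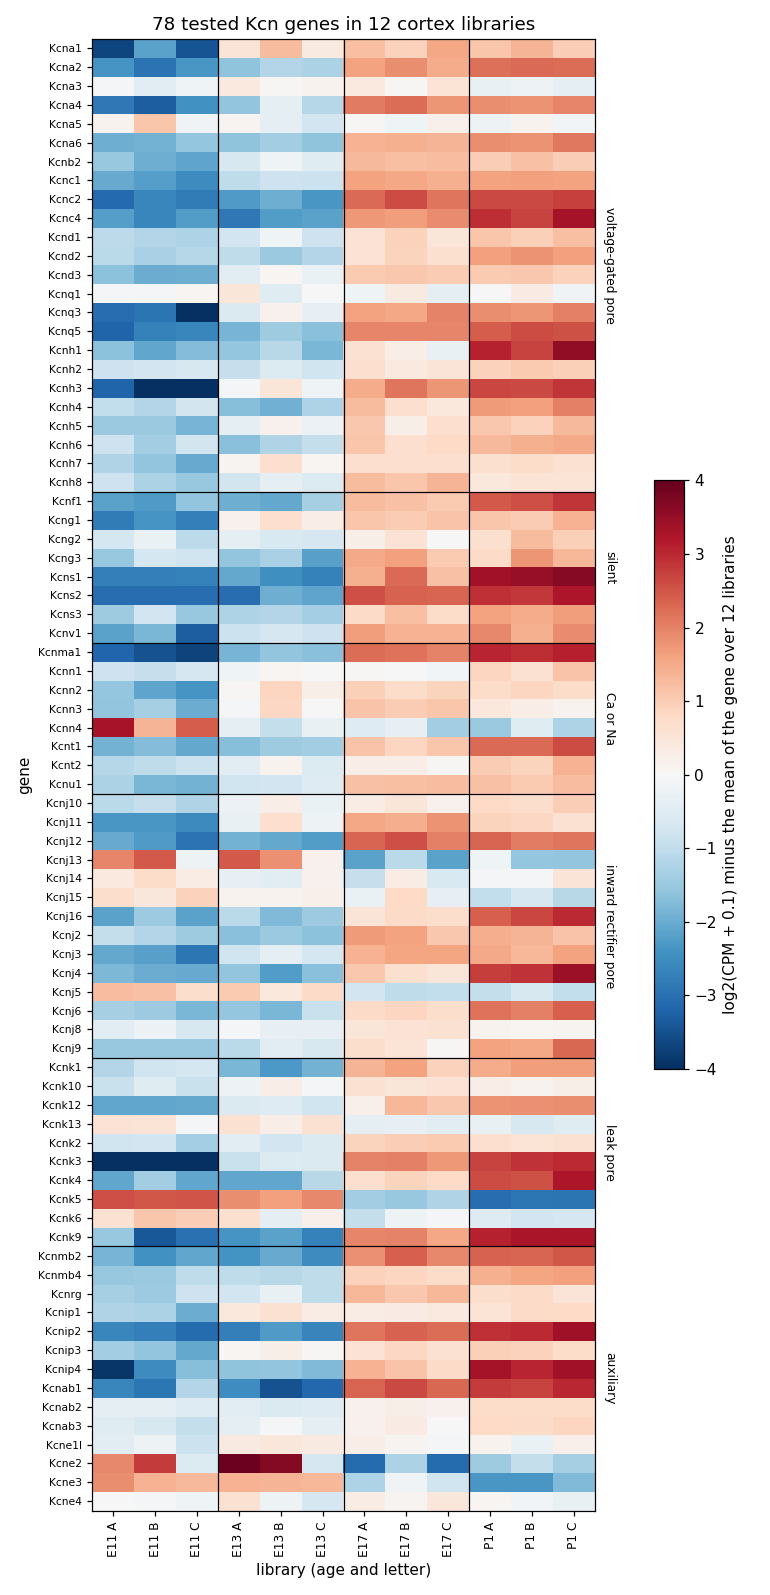
Level of 78 of the 82 tested Kcn genes in each library, as log2(CPM + 0.1) minus the mean of that gene over the 12 libraries, in blocks by role, with colours cut at -4 and 4. Most rows turn from blue at E11 and E13 to red at E17 and P1. Rows that go the other way include Kcnk5, Kcnj5, Kcne3, Kcne2 and Kcnj13, the last 2 with low values in E11 C and E13 C. Kcnn4 is high only at E11.

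Over the whole span from E11 to P1, 25 of 28 tested voltage-gated pore genes rose and none fell. That is 89.3% of them, while 40.5% of all tested genes rose and 82.3% changed in either direction. By step, 18 rose from E11 to E13, 23 from E13 to E17 and 14 from E17 to P1, with medians of 0.73, 1.91 and 0.37. None fell in the first 2 steps, and 2 fell in the last, Kcna3 and Kcnh8. The shares that changed were 64.3%, 82.1% and 57.1% in the 3 steps, against 40.1%, 73.8% and 49.9% of all tested genes. Their summed level was 143 ± 11.2 CPM at E11, 341 ± 54.2 CPM at E13, 1200 ± 27.5 CPM at E17 and 1500 ± 42.9 CPM at P1 (SD, n = 3 each).

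The Kv7 genes encode slow channels, some of which carry the M-current that holds back repeated firing in neurons, Kcnq3 among them. Kcnq3 had 5.55, 6.19 and 2.71 CPM at E11, 31.2, 52.5 and 37.5 CPM at E13, 144, 139 and 187 CPM at E17 and 172, 159 and 192 CPM at P1. Its E11 libraries were far below all others, and E17 and P1 overlapped. Kcnq3 rose by 3.06 ± 0.28 (SE; adjusted p = 1.93e-05) to E13 and by 1.96 ± 0.24 (SE; adjusted p = 2.51e-05) to E17.

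Kcnq5, another Kv7 gene of the forebrain, went from 1.36 ± 0.311 CPM at E11 to 3.18 ± 0.511 CPM, 39.6 ± 0.269 CPM and 58.8 ± 3.39 CPM (SD, n = 3 each), with rises of 1.23, 3.64 and 0.57. Kcnq1, the Kv7 gene of heart and epithelia, stayed at 1.15, 1.2, 1.12 and 1.22 CPM, and none of its comparisons passed.

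The Kv4 genes encode A-type channels, which open briefly below the firing threshold in dendrites. Kcnd2 had 12.3, 10.7 and 11.8 CPM at E11, 12.8, 9.38 and 11.5 CPM at E13, 39, 49.1 and 41 CPM at E17 and 81.7, 90.3 and 82 CPM at P1. Its E11 and E13 libraries overlapped, and E17 and P1 each lay clear above the age before. Its log2 fold change was -0.05 (adjusted p = 0.769) to E13, and it rose by 1.94 ± 0.11 (SE; adjusted p = 2.66e-09) to E17 and by 0.98 ± 0.1 (SE; adjusted p = 1.04e-05) to P1. Kcnd3 had 13.3, 10.4 and 10.6 CPM at E11, 30.3, 43.5 and 34.7 CPM at E13, 84.8, 88 and 83 CPM at E17 and 84.5, 88 and 78.4 CPM at P1. It rose by 1.66 ± 0.13 (SE; adjusted p = 1.05e-06) to E13 and by 1.24 ± 0.12 (SE; adjusted p = 6.1e-07) to E17, and E17 and P1 overlapped, with a log2 fold change of -0.03 (adjusted p = 0.857). The ratio of Kcnd2 to Kcnd3, both per kb, was 1.72, 1.92 and 2.07 at E11, 0.787, 0.402 and 0.617 at E13, 0.856, 1.04 and 0.92 at E17 and 1.8, 1.91 and 1.95 at P1. It was high at E11 and P1, which overlapped, and low at E13 and E17, and no E13 library reached the lowest E17 library. An exact permutation test of 3 against 3 libraries cannot give a p under 0.10, so ratios are described without a test.

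Kcnd1, the least of the Kv4 genes, rose by 1.26 from E13 to E17 (adjusted p = 1.33e-05) and had log2 fold changes of 0.61 to E13 (adjusted p = 0.0172) and 0.42 to P1 (adjusted p = 0.0432). The first of these 2 calls was lost without E11 C (0.0522) or E13 B (0.0902), and the second without E11 A (0.0505), E11 B (0.0504), E17 A (0.105), E17 C (0.164), P1 A (0.0765) or P1 C (0.12), with adjusted p in brackets.

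The Kv1 genes make the channels of axons, where Kcna1 and Kcna2 set the threshold for spikes. Kcna1 had 0.148, 0.619 and 0.191 CPM at E11, 4.47, 7.47 and 3.98 CPM at E13, 7.23, 5.87 and 9.19 CPM at E17 and 6.76, 7.96 and 6.23 CPM at P1. Its E11 libraries were all under 1 CPM, every later library was above 3 CPM, and E13, E17 and P1 overlapped. Kcna1 rose by 4.03 ± 0.41 (SE; adjusted p = 1.38e-05) to E13 (4.95 without E11 B), and its next steps were 0.49 (adjusted p = 0.143) and -0.1 (adjusted p = 0.804). Without E13 B, the highest E13 library, the step to E17 passed (0.82, adjusted p = 0.0223). Kcna2 rose in each step, by 1.25, 3.04 and 0.57, from 1.15 ± 0.286 CPM at E11 to 33.6 ± 0.525 CPM at P1 (SD, n = 3 each).

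Kcna6, the Kv1 gene with the most reads, had 5.88, 6.22 and 7.8 CPM at E11, 7.54, 8.76 and 7.5 CPM at E13, 61.4, 62.7 and 59.6 CPM at E17 and 84.5, 81.1 and 101 CPM at P1. E11 and E13 overlapped, and all E17 and P1 libraries were far above them. It rose by 2.95 ± 0.11 (SE; adjusted p = 5.02e-11) to E17 and by 0.54 ± 0.1 (SE; adjusted p = 0.000518) to P1, and its step to E13 of 0.26 (adjusted p = 0.0945) passed without E11 C (0.39, adjusted p = 0.0192). Kcna4, an A-type Kv1 channel, rose by 2.52 and 3.15 and then had -0.16 (adjusted p = 0.582). Kcna3, known best from lymphocytes, fell from E17 to P1, by 0.64 on the log2 scale (SE 0.14, adjusted p = 0.00221), from 12.2, 9.49 and 13.4 to 7.51, 7.96 and 7.11 CPM. Its call to E13 (0.43 ± 0.14 SE, adjusted p = 0.0289) was lost without E11 B (0.12) or E13 A (0.116), with adjusted p in brackets. Kcna5 had means between 0.874 and 1.58 CPM, and its step to E13 (-0.84, adjusted p = 0.0593) passed without E11 C (-1.09, 0.0194) or E13 A (-1.14, 0.0293).

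Kv2 and Kv3 genes make delayed rectifiers, which end action potentials. Kcnb2 rose by 1.45 ± 0.15 (SE; adjusted p = 8.96e-06) to E13 and by 1.66 ± 0.14 (SE; adjusted p = 9.03e-08) to E17 and reached 29.5 ± 0.839 CPM at E17 and 25.7 ± 1.91 CPM at P1. Kv3 channels close fast and let neurons fire at high rates. From E13 to E17, Kcnc2 (4.74), Kcnc4 (4.67) and Kcnc1 (2.43) rose.

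Kcnc1 had 6.23, 5.42 and 4.33 CPM at E11, 12.4, 14.2 and 13.9 CPM at E13, 76.8, 73.7 and 67.8 CPM at E17 and 76.6, 79.3 and 77.5 CPM at P1. E11, E13 and E17 did not overlap with each other, and E17 and P1 did. Kcnc1 rose by 1.33 to E13 (adjusted p = 9.68e-07), and its step to P1 was 0.1 (adjusted p = 0.382). Kcnc4, an A-type Kv3 channel, kept rising to P1, by 1.26 ± 0.17 (SE; adjusted p = 4.79e-05). Kcnc2, which is strong in fast-spiking interneurons, went from 0.556, 0.702 and 0.525 CPM at E13 to 15.1, 19.2 and 13.7 CPM at E17. The summed interneuron list moved over that step from 20.6, 26.8 and 59.9 to 428, 362 and 405 CPM, and its part in the rise of Kcnc2 was not tested. The calls of Kcnc2 to E13 (0.79 ± 0.26 SE, adjusted p = 0.0275) and to P1 (0.32 ± 0.12 SE, adjusted p = 0.0442) were lost without E11 A (0.12), E11 C (0.0681) or E13 B (0.126) and without E13 C (0.0515), E17 A (0.106), E17 C (0.199), P1 A (0.061), P1 B (0.055) or P1 C (0.104), with adjusted p in brackets.

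The Kcnh genes encode the eag, erg and elk channels, and all 8 rose between E11 and P1, by 1.73 (Kcnh2) to 7.27 (Kcnh3, or 8.84 without E11 A). Of all tested genes, 40.5% rose over that span. Kcnh3, an elk channel of the forebrain, had 0.857, 0.147 and 0.0956 CPM at E11, 8.44, 12.1 and 7.68 CPM at E13, 24.4, 38.2 and 29.7 CPM at E17 and 56, 55.1 and 63 CPM at P1. E11 A held most of the E11 reads, and the ages did not overlap. Kcnh3 rose by 4.65 ± 0.45 (SE; adjusted p = 2.12e-05) to E13, or by 6.22 without E11 A, and by 1.71 ± 0.28 (SE; adjusted p = 0.000249) to E17. Its rise to P1 (0.92 ± 0.27 SE, adjusted p = 0.0157) was lost without E17 A (0.054), E17 C (0.0615) or P1 C (0.0579), with adjusted p in brackets, and in DESeq2 (0.134).

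Kcnh1, the eag channel, rose late. It had 0.739, 0.531 and 0.701 CPM at E11, 0.794, 1.12 and 0.648 CPM at E13, 3.9, 3.08 and 2.04 CPM at E17 and 22.4, 17.2 and 30.8 CPM at P1. The P1 libraries were far above the rest, and E11 and E13 overlapped. Kcnh1 rose by 1.78 ± 0.32 (SE; adjusted p = 0.000227) to E17 and by 2.99 ± 0.26 (SE; adjusted p = 4.13e-06) to P1, the largest rise from E17 to P1 of any tested Kcn gene. Kcnh7, an erg channel, rose early instead, by 1.88 ± 0.19 (SE; adjusted p = 1.97e-05) to E13, and was at 46, 58.6 and 58.1 CPM from then on. Its step to E17 (0.35, adjusted p = 0.0983) passed without E13 B (0.56, 0.00803), E11 A (0.35, 0.049) or E11 C (0.35, 0.0415). Kcnh2, the erg channel of the heart, rose by 1.29 to E17 and 0.45 to P1. Kcnh8 rose by 1.88 to E17 and then fell by 0.76 on the log2 scale to P1 (adjusted p = 0.00204). Its call to E13 (0.66 ± 0.21 SE, adjusted p = 0.0204) was lost without E11 B (0.0656), E11 C (0.0853) or E13 B (0.0741), with adjusted p in brackets.

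Silent Kv subunits make no channel alone; they join Kv2 subunits and change how those channels open. All 8 tested silent genes rose from E13 to E17 and over the whole span, with medians of 2.67 and 3.99; 3 rose to E13 and 5 to P1. In the 3 steps 37.5%, 100% and 62.5% of them changed, against 40.1%, 73.8% and 49.9% of all tested genes. Over the whole span 100% of them changed, against 82.3% of all tested genes, of which 40.5% rose. Kcng1 came first: it had 2.16, 2.95 and 2.26 CPM at E11, 17.4, 24.9 and 18.8 CPM at E13, 33.7, 31.8 and 34.5 CPM at E17 and 34, 31.4 and 40.9 CPM at P1. Its E11 libraries were under 4 CPM, and E17 and P1 overlapped. Kcng1 rose by 3.05 ± 0.17 (SE; adjusted p = 7.8e-08) to E13 and by 0.71 ± 0.14 (SE; adjusted p = 0.000415) to E17. Kcnf1 came late: it had 1.39, 1.27 and 2.1 CPM at E11, 1.61, 1.49 and 2.56 CPM at E13, 15.9, 14.9 and 13.6 CPM at E17 and 35.9, 39.6 and 47.6 CPM at P1. Its E11 and E13 libraries overlapped, and P1 lay clear above E17. Kcnf1 rose by 2.97 ± 0.2 (SE; adjusted p = 2.52e-08) to E17 and by 1.48 ± 0.17 (SE; adjusted p = 2.09e-05) to P1.

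Kcnv1, which is found in the brain, rose by 1.56 ± 0.28 (SE; adjusted p = 0.000932) to E13 and by 2.3 ± 0.23 (SE; adjusted p = 2.15e-06) to E17, from 1.63 ± 0.787 CPM to 23.9 ± 2.78 CPM. Kcns2 had no reads in the 3 E11 libraries and 769 reads at P1, which is at least 215-fold higher at P1 with a floor of 3 reads over the E11 libraries. Its call to E13, on 7 reads, was lost without E11 A (0.0691), E11 B (0.0731), E11 C (0.067), E13 B (0.104) or E13 C (0.0744), with adjusted p in brackets, and its rise to P1 (0.58 ± 0.22 SE, adjusted p = 0.0495) was lost without E13 C (0.0579), E17 A (0.0611), E17 B (0.112), E17 C (0.142), P1 A (0.0731), P1 B (0.0548) or P1 C (0.177). Kcns1 had 3 reads at E11 and 1135 at P1, a ratio of 317 (95% exact counting interval 108 to 1540), and it rose by 1.86 ± 0.24 (SE; adjusted p = 3.45e-05) from E17 to P1. Kcng3 rose by 4.46 ± 0.57 (SE; adjusted p = 6.32e-06) to E17 (5.12 without E13 B), to 1.13 ± 0.251 CPM. Kcng2 stayed under 1 CPM, and its calls to E17 and P1 were lost without E13 B (0.0502), E13 C (0.057) or E17 B (0.0776) and without E17 A (0.0732), E17 C (0.154), P1 B (0.118) or P1 C (0.0659), with adjusted p in brackets.

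**Figure D3:**
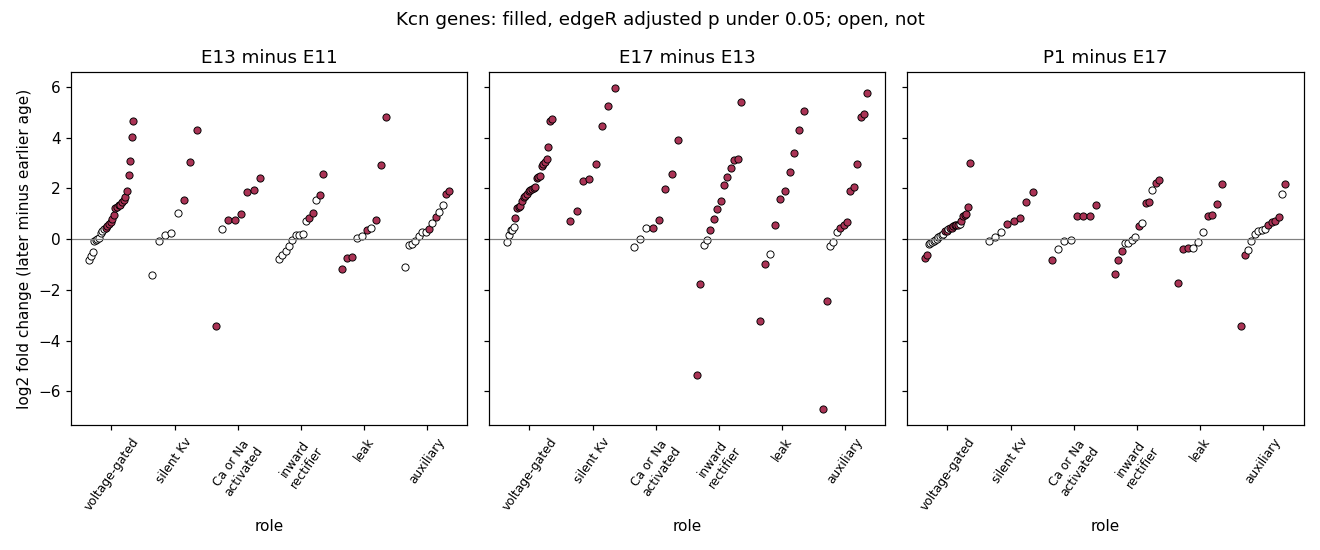
Log2 fold changes (vertical axis, later minus earlier age) of the 82 tested Kcn genes by role in the 3 consecutive steps, with filled points for an edgeR adjusted p under 0.05. From E13 to E17, 62 filled points lie above 0 and 6 below, and from E17 to P1 there are 37 above and 11 below.

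Channels that open on calcium or sodium follow the activity of a neuron. The group was drawn by gene family and so also counts Kcnu1 (Slo3), which is not known to open on calcium or sodium. Kcnu1 is among the rises to E13 and to E17. Of 8 tested genes, 6 rose and 1 fell to E13, 5 rose to E17, and 4 rose and 1 fell to P1. These are 87.5%, 62.5% and 62.5% of the group, against 40.1%, 73.8% and 49.9% of all tested genes, so the share to E17 lay below that of all genes. Kcnma1, the pore of the BK channel, which opens on both calcium and voltage, had 0.827, 0.649 and 0.542 CPM at E11, 2.2, 2.67 and 2.5 CPM at E13, 38.8, 37.8 and 33 CPM at E17 and 68.3, 64 and 72 CPM at P1. The 4 ages did not overlap. Kcnma1 rose by 1.85 ± 0.16 (SE; adjusted p = 1.54e-06), 3.89 ± 0.11 (SE; adjusted p = 7.46e-12) and 0.9 ± 0.09 (SE; adjusted p = 5.83e-06) in the 3 steps. Its brain partner Kcnmb4, a BK beta subunit that slows the channel, had 7.44, 7.61 and 10.5 CPM at E11, 10.4, 9.8 and 10.6 CPM at E13, 40.7, 38.5 and 35.6 CPM at E17 and 57, 63.5 and 66 CPM at P1. It rose by 1.9 ± 0.11 (SE; adjusted p = 3.54e-09) to E17 and by 0.7 ± 0.11 (SE; adjusted p = 0.000138) to P1, and its step to E13 (0.27, adjusted p = 0.091) passed without E11 C (0.44, 0.00292). The ratio of Kcnmb4 to Kcnma1, both per kb, was 46.1, 60.0 and 99.2 at E11, 24.2, 18.8 and 21.7 at E13, 5.37, 5.22 and 5.52 at E17 and 4.27, 5.08 and 4.69 at P1, without overlap between ages, though the highest P1 library was close to the lowest E17 library.

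The SK genes Kcnn1, Kcnn2 and Kcnn3 make the channels of the afterhyperpolarisation, which spaces action potentials. All 3 rose from E11 to E13, as did 22.6% of all tested genes: Kcnn2 (2.42), Kcnn3 (1.95) and Kcnn1 (0.77). Kcnn3 had 4.85, 5.72 and 3.6 CPM at E11, 14.3, 26.1 and 14.4 CPM at E13, 32.1, 29.7 and 31.9 CPM at E17 and 19.8, 17.7 and 16.2 CPM at P1. E13 B was well above the other E13 libraries, E17 was highest, and P1 lay below every E17 library. It rose by 0.77 ± 0.21 (SE; adjusted p = 0.00622) to E17 and fell by 0.81 on the log2 scale to P1 (SE 0.21, adjusted p = 0.0083). Kcnn1 had 10.6, 9.82 and 11.8 CPM at E11, 16.6, 19.8 and 18.5 CPM at E13, 19.3, 18.7 and 17.4 CPM at E17 and 34.5, 28.9 and 41.5 CPM at P1. E13 and E17 overlapped, P1 was clear above both, and the rise to P1 was 0.92 ± 0.12 (SE; adjusted p = 4.21e-05). Kcnn2 had 14.1, 25.2 and 16.3 CPM at E13, again highest in E13 B, 25.1 CPM at E17 and 23.6 CPM at P1; its step to E17 (0.44, adjusted p = 0.0706) passed without E13 B (0.72, 0.00167) or E11 A (0.44, 0.0394).

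Kcnt1 and Kcnt2 are sodium-activated channels. Kcnt1 had 2.25, 2.56 and 2.01 CPM at E11, 2.59, 3.2 and 3.24 CPM at E13, 19.3, 15.8 and 18.7 CPM at E17 and 41.9, 42.3 and 53.2 CPM at P1. The 4 ages did not overlap. It rose by 2.58 ± 0.14 (SE; adjusted p = 9.46e-10) to E17 and by 1.35 ± 0.12 (SE; adjusted p = 2.85e-06) to P1, and its step to E13 (0.4, adjusted p = 0.0535) passed without E11 B (0.5, 0.0429), E13 A (0.5, 0.0286), E17 B (0.4, 0.0424) or P1 C (0.39, 0.0362). Kcnt2 rose by 0.76 ± 0.2 (SE; adjusted p = 0.00787) to E13 and by 0.93 ± 0.18 (SE; adjusted p = 0.000868) to P1; its call to E17 (0.45 ± 0.19 SE, adjusted p = 0.0448) was lost without E11 A (0.051), E11 B (0.0538), E13 A (0.151), E13 C (0.17), E17 A (0.101), E17 B (0.103) or P1 A (0.0504), with adjusted p in brackets, and when scaled only by total reads (0.215). Kcnu1, known as a channel of sperm, rose by 1 ± 0.19 (SE; adjusted p = 0.001) and 1.96 ± 0.16 (SE; adjusted p = 8.91e-08) to 6.46 ± 0.203 CPM at E17.

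Inward rectifiers pass potassium near the resting voltage. Of 14 tested, 4 rose to E13, 10 rose and 2 fell to E17, and 5 rose and 3 fell to P1. That is 28.6%, 85.7% and 57.1% of the inward rectifiers, against 40.1%, 73.8% and 49.9% of all tested genes, a lower share in the first step. The G-protein-gated members, which answer to inhibitory transmitters, went in opposite directions. Kcnj3, the common partner of neuronal channels of this kind, had 3.16, 2.92 and 1.75 CPM at E11, 7.72, 10.4 and 8.24 CPM at E13, 35.8, 40.3 and 40.1 CPM at E17 and 38.9, 33.9 and 41 CPM at P1. E11, E13 and E17 did not overlap, and E17 and P1 did. Kcnj3 rose by 1.74 ± 0.18 (SE; adjusted p = 1.12e-05) and 2.14 ± 0.16 (SE; adjusted p = 4.94e-08). Kcnj6 and Kcnj9, the other neuronal members, rose by 2.43 and 1.18 to E17 and by 1.47 and 1.43 to P1; the call of Kcnj9 to E13 (0.85 ± 0.27 SE, adjusted p = 0.0243) was lost without E11 A (0.0632), E11 B (0.066), E11 C (0.0619), E13 B (0.103) or E13 C (0.0585), with adjusted p in brackets. Kcnj5, the member best known from the heart, had 8.15, 7.72 and 5.51 CPM at E11, 7.06, 4.58 and 5.86 CPM at E13, 1.93, 1.61 and 1.66 CPM at E17 and 1.7, 2.14 and 1.65 CPM at P1. E11 and E13 overlapped, as did E17 and P1, and the later pair lay far below the earlier. Kcnj5 fell by 1.75 on the log2 scale from E13 to E17 (SE 0.2, adjusted p = 3.14e-06). The ratio of Kcnj5 to Kcnj3, both per kb, was 2.88, 2.95 and 3.51 at E11, 1.02, 0.491 and 0.793 at E13, 0.0601, 0.0446 and 0.0462 at E17 and 0.0487, 0.0704 and 0.0449 at P1.

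Kcnj11 is the pore of the ATP-sensitive channel, which ties firing to energy supply and needs the receptor subunit Abcc8. Kcnj11 had 2.48, 2.48 and 2.13 CPM at E11, 10.5, 20.7 and 11.2 CPM at E13, 38, 35.4 and 45.3 CPM at E17 and 23.9, 23.1 and 19.7 CPM at P1. It was highest at E17, E13 B stood above the other E13 libraries, and E13 and P1 overlapped. Kcnj11 rose by 2.58 ± 0.26 (SE; adjusted p = 1.43e-05) and 1.49 ± 0.22 (SE; adjusted p = 5.83e-05) and then fell by 0.83 on the log2 scale (SE 0.21, adjusted p = 0.00643). Abcc8 had log2 fold changes of 3.65 (SE 0.53, adjusted p = 0.00047), 1.36 (0.013) and -0.82 (0.118) in the same steps. Its E13 libraries had 9.26, 32.1 and 12.2 CPM, again highest in E13 B. Kcnj8, the other ATP-sensitive pore, known from pericytes, rose by 0.8 ± 0.12 (SE; adjusted p = 3.99e-05) to E17 and then fell by 0.45 on the log2 scale (adjusted p = 0.00617), and its partner Abcc9 had 0.68 (adjusted p = 0.000415) and -0.47 (0.00884). The 4 pericyte markers summed to 285 to 304 CPM at E11, 239 to 269 CPM at E13, 162 to 180 CPM at E17 and 145 to 155 CPM at P1, and they did not move together. From E13 to E17 to P1 the mean of Notch3 went from 169 to 41.2 to 39 CPM, that of Rgs5 from 38.3 to 95.6 to 80.2 CPM, that of Pdgfrb from 37.5 to 33.6 to 28.9 CPM and that of Anpep from 9.22 to 2.77 to 2.66 CPM. The part of pericytes in the change of Kcnj8 was not tested.

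Kcnj2, Kcnj4 and Kcnj12 are strong rectifiers that hold neurons at rest. Kcnj2 rose by 3.14 ± 0.18 (SE; adjusted p = 2.32e-09) to E17, from 2.85 to 25.2 CPM. Kcnj12 rose by 5.39 ± 0.35 (SE; adjusted p = 6.79e-09) to E17 and stayed at 3.37 CPM at P1. Kcnj4 rose by 2.81 ± 0.28 (SE; adjusted p = 5.61e-07) to E17 and by 2.34 ± 0.21 (SE; adjusted p = 3.1e-06) to P1, to 12.3, 13.2 and 19.3 CPM. Kcnj10, the rectifier of astrocytes, rose by 1.02 ± 0.15 (SE; adjusted p = 0.000141) to E13 and by 0.51 ± 0.14 (SE; adjusted p = 0.00784) to P1, from 10.6 ± 1.12 CPM to 39.6 ± 3.81 CPM. Its call to E17 (0.36 ± 0.14 SE, adjusted p = 0.0331) was lost without E13 A (0.125), E13 C (0.126), E17 A (0.055) or E17 B (0.119), with adjusted p in brackets, and when scaled only by total reads (0.261). The 5 astrocyte markers summed to 262 to 335 CPM at E11, 264 to 311 CPM at E13, 266 to 378 CPM at E17 and 464 to 488 CPM at P1, a sum of members that went in opposite directions. From E13 to E17 the mean of Gja1 went from 178 to 20.3 CPM, while Slc1a3 went from 111 to 224, Aldh1l1 from 0.906 to 53.5, Gfap from 0.124 to 10.5 and Aqp4 from 1.41 to 6.01 CPM. The part of astrocytes in the change of Kcnj10 was not tested. Kcnj16, its partner in glia, had 2 reads at E11 and 331 at P1, and rose by 3.11 ± 0.5 (SE; adjusted p = 5.81e-05) to E17 and by 2.21 ± 0.29 (SE; adjusted p = 4.48e-05) to P1, to 2.78 ± 0.605 CPM. Kcnj15 stayed under 1 CPM in its means, and its fall to P1 (-1.36 ± 0.4 SE, adjusted p = 0.0112) was lost without E17 B (0.0846).

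The 2-pore-domain channels give the leak current that sets the resting voltage. Of 10 tested, 4 rose and 3 fell to E13, 7 rose and 2 fell to E17, and 4 rose and 3 fell to P1. Among leak genes 70%, 90% and 70% changed, against 40.1%, 73.8% and 49.9% of all tested genes. Kcnk5, an acid-sensitive leak channel best known from the kidney, had 32.3, 30.2 and 30.8 CPM at E11, 19.7, 16.9 and 20.4 CPM at E13, 1.97, 1.83 and 2.27 CPM at E17 and 0.559, 0.644 and 0.621 CPM at P1. The 4 ages did not overlap, and each was lower than the one before. Kcnk5 changed by -0.71 ± 0.09 (SE; adjusted p = 4.39e-05), -3.21 ± 0.11 (SE; adjusted p = 2.53e-11) and -1.74 ± 0.15 (SE; adjusted p = 2.46e-06) in the 3 steps. Kcnk3, an acid-sensitive channel of neurons, had 0.0591, 0.059 and 0.0319 CPM at E11, 1.27, 1.66 and 1.6 CPM at E13, 9.89, 10.2 and 8.37 CPM at E17 and 16.6, 18.8 and 19.9 CPM at P1. The 4 ages did not overlap here either, and each was higher than the one before. Kcnk3 rose by 4.81 ± 0.3 (SE; adjusted p = 1.46e-07), 2.65 ± 0.14 (SE; adjusted p = 9.31e-10) and 0.96 ± 0.12 (SE; adjusted p = 2.52e-05). Kcnk9, a close relative of Kcnk3, rose by 5.07 ± 0.45 (SE; adjusted p = 2.81e-07) to E17 and by 1.4 ± 0.27 (SE; adjusted p = 0.000973) to P1, from 0.103 ± 0.0394 CPM at E13 to 9.52 ± 0.748 CPM at P1.

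Kcnk2, a channel that answers to stretch and lipids, had 18.9, 19.4 and 12.8 CPM at E11, 24, 19.5 and 22.2 CPM at E13, 62.1, 66.1 and 68.3 CPM at E17 and 52.9, 48.6 and 50.5 CPM at P1. E17 was highest and did not overlap with P1. It rose by 1.58 ± 0.13 (SE; adjusted p = 1.2e-07) to E17. Its call to E13 (0.36 ± 0.13 SE, adjusted p = 0.0416) was lost in 9 of the 12 runs that left out a library, without E11 C (0.112), E13 A (0.135), E13 C (0.0892), E17 A (0.0577), E17 B (0.0513), E17 C (0.0504), P1 A (0.0593), P1 B (0.0583) or P1 C (0.0617), with adjusted p in brackets. Its fall to P1 (-0.37 ± 0.12 SE, adjusted p = 0.0227) was lost without E17 B (0.0524), E17 C (0.0747), P1 B (0.091) or P1 C (0.0738). The ratio of Kcnk5 to Kcnk2, both per kb, was 2.48, 2.26 and 3.5 at E11, 1.19, 1.26 and 1.34 at E13, 0.0461, 0.0402 and 0.0483 at E17 and 0.0154, 0.0193 and 0.0179 at P1, with no overlap between ages. Kcnk10, a relative of Kcnk2, rose by 0.75 ± 0.13 (SE; adjusted p = 0.000486) and 0.56 ± 0.12 (SE; adjusted p = 0.00104); its fall to P1 (-0.35 ± 0.12 SE, adjusted p = 0.0312) was lost without E17 A (0.107), E17 C (0.0832), P1 A (0.0655), P1 B (0.127) or P1 C (0.0935).

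Kcnk1 fell and then rose: it had 3.31, 4.3 and 4.56 CPM at E11, 2.04, 1.46 and 1.94 CPM at E13 and 19.4, 23.2 and 14.4 CPM at E17, with steps of -1.16 ± 0.2 (SE; adjusted p = 0.000682) and 3.38 ± 0.19 (SE; adjusted p = 3.19e-09). Its step to P1 was 0.3 (adjusted p = 0.139) and passed without E17 B (0.47, 0.0281). Kcnk4, a mechanosensitive channel, had 3 reads at E13 and 61 at E17, a ratio of 22.2 (95% exact counting interval 7.24 to 111), and rose by 2.19 ± 0.36 (SE; adjusted p = 0.000239) to P1. Kcnk12 had 3 reads at E11 and 219 at P1, a ratio of 61.2 (20.7 to 299). Kcnk13, known from microglia, fell by 0.99 on the log2 scale to E17 (adjusted p = 0.00257), from 1.03 ± 0.139 CPM to 0.52 ± 0.0241 CPM. The 5 microglial markers summed to 33.8 to 39.4 CPM at E11 and 24.1 to 40.7 CPM at E13. Their sum was 33.4 to 49.7 CPM at E17 and 47 to 54.2 CPM at P1. From E13 to E17 the mean of Csf1r went from 18 to 16.6 CPM and that of Aif1 from 1.09 to 1.1 CPM. Cx3cr1 went from 7.97 to 11.5, C1qa from 4.59 to 6.44 and P2ry12 from 2.45 to 4.52 CPM. The part of microglia in the change of Kcnk13 was not tested. Kcnk6 fell over the whole span, by 1.67 on the log2 scale (adjusted p = 0.000104); its call to E13 (-0.74 ± 0.27 SE, adjusted p = 0.0452) was lost in 8 of the 12 runs, without E11 B (0.139), E11 C (0.0937), E13 B (0.178), E13 C (0.0941), E17 B (0.0535), P1 A (0.0531), P1 B (0.0534) or P1 C (0.0537), with adjusted p in brackets, and its step to E17 (-0.58, adjusted p = 0.0925) passed without E13 B (-0.82, 0.0172).

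**Figure D4:**
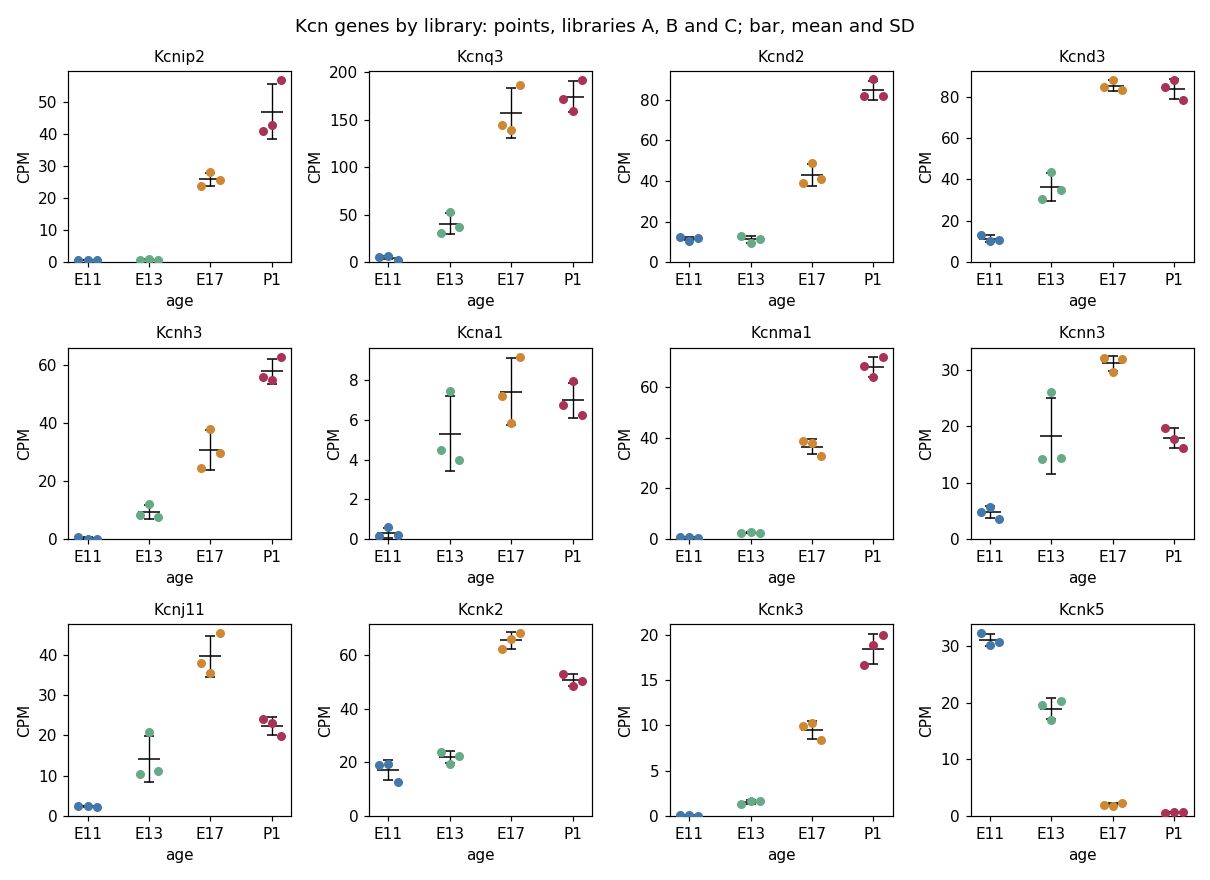
CPM (vertical axis, from 0) of 12 Kcn genes by age, with 1 point per library and a bar for the mean and SD of 3 libraries. Kcnk5 goes down from 31.1 to 0.608 CPM in its means, Kcnn3, Kcnj11 and Kcnk2 are highest at E17, and Kcnip2 goes up from 0.682 to 46.9 CPM.

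Auxiliary subunits change the traffic and gating of the pores. KChIPs, calcium sensors that bind Kv4 channels, all rose over the span: Kcnip4 (6.19), Kcnip2 (6.09), Kcnip3 (2.53) and Kcnip1 (2.16). Of all tested genes, 40.5% rose over that span. Kcnip3, which is also known as the transcription repressor DREAM, had 10.6, 9.4 and 6.72 CPM at E11, 29.5, 33.2 and 28.7 CPM at E13, 42.3, 50.4 and 43 CPM at E17 and 54.4, 53.4 and 46.6 CPM at P1, and rose by 1.77 ± 0.14 (SE; adjusted p = 1.25e-06) to E13 and by 0.57 ± 0.13 (SE; adjusted p = 0.00139) to E17. Kcnip1 rose by 1.89 ± 0.16 (SE; adjusted p = 2.57e-06) to E13 and had -0.1 (adjusted p = 0.55) to E17; its step to P1 (0.37, adjusted p = 0.0598) passed without E11 C (0.36, 0.005) or P1 A (0.47, 0.0395) and in DESeq2 (0.39, 0.0267) and limma-voom (0.36, 0.0225). Kcnip2 had 0.798, 0.707 and 0.542 CPM at E11, 0.714, 1.04 and 0.772 CPM at E13, 23.8, 28 and 25.7 CPM at E17 and 41, 42.8 and 56.8 CPM at P1. All E11 and E13 libraries were near 1 CPM or below, and P1 lay above E17. Kcnip2 rose by 4.94 ± 0.18 (SE; adjusted p = 3.53e-11) to E17 and by 0.86 ± 0.13 (SE; adjusted p = 0.000107) to P1. Kcnip4 rose by 2.97 ± 0.33 (SE; adjusted p = 3.44e-06) and 2.16 ± 0.25 (SE; adjusted p = 2.51e-05); its step to E13 (1.06, adjusted p = 0.111) passed without E11 C (1.91, 0.0137), and over the span its rise was 7.04 without E11 C. The 4 KChIP genes summed per kb, over the 3 Kv4 genes summed per kb, gave ratios of 1.03, 1.12 and 0.745 at E11, 1.97, 1.92 and 1.84 at E13, 1.3, 1.29 and 1.32 at E17 and 1.34, 1.26 and 1.48 at P1, highest in the E13 libraries, which did not overlap with the others.

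The beta subunits Kcnab1, Kcnab2 and Kcnab3 bind Kv1 channels. Kcnab1 went from 0.503, 0.197 and 0.278 CPM at E13 to 16.8, 20.9 and 16.5 CPM at E17, a rise of 5.76 ± 0.37 (SE; adjusted p = 3.28e-08). Its step to E13 (-1.1, adjusted p = 0.114) passed without E11 B (-1.43, 0.0427), its step to P1 (0.4, adjusted p = 0.194) without E11 C (0.4, 0.0283), and over the span it rose by 5.06 ± 0.33 (SE; adjusted p = 2.22e-08), or 5.89 without E11 C. Kcnab2 rose by 0.69 ± 0.07 (SE; adjusted p = 4.13e-07) and 0.55 ± 0.06 (SE; adjusted p = 1.67e-05) to 39.1 ± 0.297 CPM at P1. Kcnab3 rose by 0.66 ± 0.13 (SE; adjusted p = 0.00123) to P1; its calls to E13 (0.41 ± 0.14 SE, adjusted p = 0.0338) and E17 (0.43 ± 0.14 SE, adjusted p = 0.0127) were lost without E11 B (0.0663), E11 C (0.135), E13 B (0.146), E17 A (0.0502) or P1 A (0.0504) and without E13 C (0.0533) or E17 B (0.0558), with adjusted p in brackets, and the second also when scaled only by total reads (0.12). Kcnmb2, a BK beta subunit that blocks its channel, rose by 4.82 ± 0.24 (SE; adjusted p = 5.45e-10) to E17, from 0.235 to 6.79 CPM, and its step to P1 (0.33, adjusted p = 0.111) passed without E17 B (0.52, 0.0178). Kcnrg, a gene for a protein that holds back Kv1 channels, rose by 2.07 ± 0.24 (SE; adjusted p = 2.91e-06) to E17, and its fall to P1 (-0.62 ± 0.21 SE, adjusted p = 0.0261) was lost without E17 A (0.08), E17 C (0.0866), P1 A (0.064), P1 B (0.0515) or P1 C (0.108), with adjusted p in brackets.

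The KCNE genes encode subunits that cross the membrane once. Of 4 tested, 1 rose to E13, 2 fell to E17 and 1 fell to P1. With 25%, 50% and 25% changed, each share was below the 40.1%, 73.8% and 49.9% of all tested genes. Kcne1l rose by 0.88 ± 0.16 (SE; adjusted p = 0.000704) to E13; over the span it rose by 0.52 ± 0.16 (SE; adjusted p = 0.00798), a call lost when scaled only by total reads (0.29, adjusted p = 0.101), which also called its step to E17 a fall (-0.46, 0.0152). Kcne3 had 1.74, 1.21 and 1.15 CPM at E11, 1.22, 1.18 and 1.17 CPM at E13, 0.114, 0.358 and 0.188 CPM at E17 and 0, 0 and 0.0477 CPM at P1, and fell by 2.43 on the log2 scale to E17 (SE 0.39, adjusted p = 5.91e-05). With 2 reads at P1 and 21 at E17, its ratio of E17 to P1 was 12.8 (95% exact counting interval 3.13 to 113).

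Kcne2, Kcnj13 and Kcnn4 are genes known from cells outside the cortical wall, and stand here beside markers of those cells. Kcne2, a KCNE subunit of choroid plexus, had 3.07, 5.81 and 0.478 CPM at E11, 12.7, 10.7 and 0.432 CPM at E13, 0, 0.251 and 0 CPM at E17 and 0.213, 0.335 and 0.239 CPM at P1. Kcnj13, a rectifier of the same tissue, had 1.62, 2.33 and 0.287 CPM at E11, 2.3, 1.46 and 0.401 CPM at E13, 0, 0.107 and 0 CPM at E17 and 0.293, 0.0515 and 0.0477 CPM at P1. The 5 choroid plexus markers summed to 140, 256 and 86 CPM at E11, 374, 331 and 38.2 CPM at E13, 3.45, 8.45 and 0.61 CPM at E17 and 1.23, 1.06 and 1.29 CPM at P1. In all 3, E11 C and E13 C were the lowest library of their age, and E17 A and C held no reads of Kcne2 or Kcnj13. Within the marker list, Otx2 and Folr1 were lowest in E11 A instead. The marker Kl stayed under 1 CPM and had its highest mean at P1 (0.531 CPM). Kcne2 fell by 6.7 on the log2 scale from E13 to E17 (SE 1.65, adjusted p = 0.00426), or had -11.15 without E17 B and -5.91 without E17 C, and missed the threshold in limma-voom (0.0674). Its E11 and E13 libraries overlapped, with a log2 fold change of 1.34 (adjusted p = 0.311) that passed with E11 C, E13 C and E17 A removed (1.4, 0.0243). Because E11 C and E13 C were its own lowest libraries and were chosen after seeing the data, that removal narrowed its spread by selection. The pass is therefore no independent evidence of a rise. Kcnj13 had 152 reads at E13 and 3 at E17, a ratio of 46.4 (95% exact counting interval 15.6 to 228). From E11 to P1 the fall of Kcne2 (-3.56 ± 1.34 SE, adjusted p = 0.0314) was lost without E11 A (0.0549), E11 B (0.118), E17 B (0.0605), P1 A (0.0836), P1 B (0.0683) or P1 C (0.0851), with adjusted p in brackets, and that of Kcnj13 was -3.44 ± 0.97 (SE; adjusted p = 0.00598), or -4.72 without P1 A.

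Kcnn4, the calcium-activated channel of red cells, had 5.5, 1.36 and 2.99 CPM at E11, 0.344, 0.197 and 0.37 CPM at E13, 0.303, 0.358 and 0.117 CPM at E17 and 0.107, 0.309 and 0.143 CPM at P1. Its E11 libraries were above all others, with A highest and B lowest. Kcnn4 fell by 3.42 on the log2 scale from E11 to E13 (SE 0.53, adjusted p = 0.000299), or had -2.83 without E11 A, and its later steps were -0.31 (adjusted p = 0.704) and -0.38 (adjusted p = 0.711). The 6 erythroid markers summed to 12900, 4610 and 7280 CPM at E11 and 949, 518 and 1320 CPM at E13. They summed to 71.4, 40.4 and 88.6 CPM at E17 and 23.6, 16.6 and 13.3 CPM at P1. The libraries had the same order in this sum as in Kcnn4 at E11 and at E13, but not at E17 or P1. Most of the E11 sum was Hbb-y (10700, 3870 and 5470 CPM). Hbb-bh1 (925, 264 and 1100 CPM at E11) was highest in E11 C instead of E11 A. The part of choroid plexus or blood in the changes of Kcne2, Kcnj13 and Kcnn4 was not tested. When the erythroid markers were removed before scaling, the calls of the 82 Kcn genes were the same in every comparison.

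**Figure D5:**
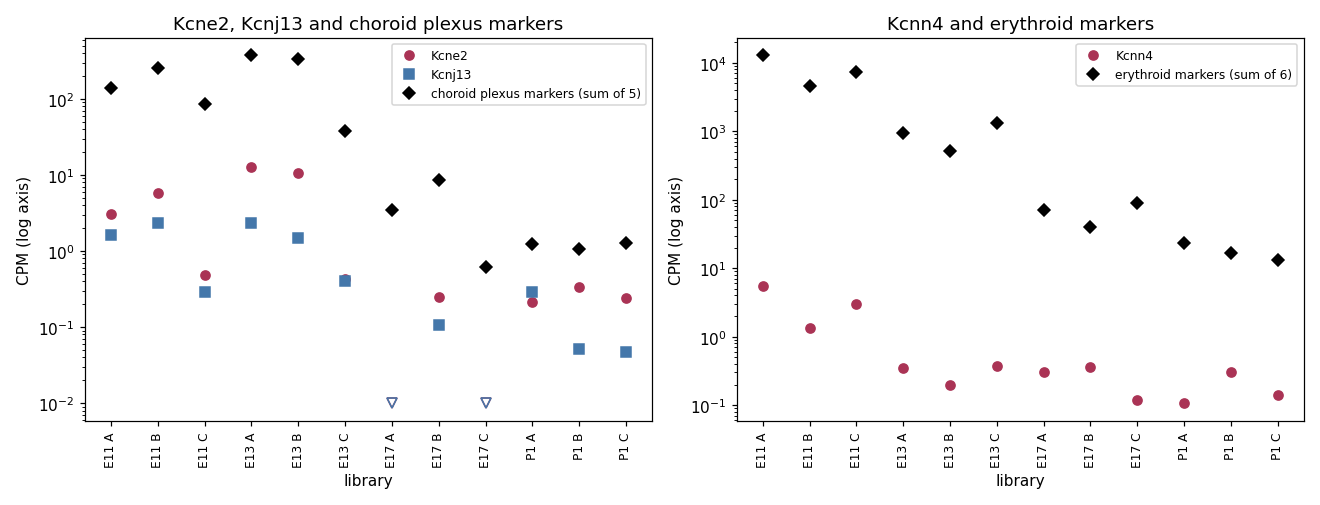
CPM (log axis) by library of Kcne2 and Kcnj13 with the sum of 5 choroid plexus markers (left), and of Kcnn4 with the sum of 6 erythroid markers (right), with open triangles at the foot for libraries with no reads. Kcne2 and Kcnj13 are low in E11 C and E13 C, where the choroid plexus sum is 86 and 38.2 CPM, and Kcnn4 is above 1 CPM only at E11.

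Genes that work with these channels were counted from lists made from textbook knowledge. Of 16 tested channel partners, 11, 14 and 6 rose and 2, 2 and 3 fell in the 3 steps, with medians of 0.69, 1.58 and 0.14. The partners that changed were 81.2%, 100% and 56.2% of the list, against 40.1%, 73.8% and 49.9% of all tested genes, and the last share was near that of all genes. The largest rises were those of Abcc8 (3.65 ± 0.53 SE) to E13, Dlg2 (3.87), a scaffold of Kv1 channels, to E17, and Dpp10 (1.26), a Kv4 subunit, to P1. Abcc8 was far higher in E13 B than in E13 A or E13 C. The largest falls were those of Cntnap2 (-0.98), which holds Kv1 channels along axons, to E13, Dlg1 (-0.97), a scaffold, to E17, and Cntn2 (-0.84), a partner of Cntnap2, to P1. Of the HCN genes, whose channels pass sodium and potassium and pace firing, Hcn2 (3.93), Hcn4 (2.43) and Hcn3 (1.71) rose from E13 to E17, and Hcn2 (1.16) and Hcn4 (0.34) rose to P1. Of 6 tested genes of the sodium-potassium pump, which restores the potassium gradient, 3, 3 and 5 rose and 2, 2 and 0 fell in the 3 steps. As shares 83.3%, 83.3% and 83.3% of the pump genes changed, against 40.1%, 73.8% and 49.9% of all tested genes. The pump subunit Atp1b1 (4.05) had the largest rise to E17 and, at 1.49, to P1, and Atp1b3 (-0.61) had the largest fall to E17.

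Reads of overlapping genes can enter these values, since the labels name a stranded kit but the counting setting is not given in the sources used here. In the GENCODE M21 annotation, Kcn genes that share over 10% of their exon bases with a gene on the other strand include Kcnj13 (49.1%, with Gigyf2), Kcna6 (39.6%), Kcnmb4 (31.5%), Kcnj3 (31.1%) and Kcnk2 (12.2%). Kcnk4 shares 13.1% with Catsperz on its own strand.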

How the data were processed

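The authors deposited raw counts of reads per Ensembl gene, 1 table per library. The submitters' processing notes name STAR 2.5.2b, HTSeq 0.5.3, SAMtools, bcl2fastq 2.18 and, as a tool of theirs, DESeq2 1.8.1. Their genome build, annotation and strand option were not given in the sources used here. Gene symbols were matched for 50376 of 50600 genes. The counts were tested in R 4.3.3 with edgeR 4.0.16 (quasi-likelihood, robust): genes were kept by filterByExpr with a minimum count of 10, scaled by TMM (factors 0.92 to 1.094) and fitted with 1 coefficient per age over all 12 libraries, and p-values were adjusted by Benjamini-Hochberg over 17847 genes with a threshold of 0.05. The SE of a log2 fold change was taken from its F statistic. Exon lengths are union exon lengths of GENCODE M21. Counting intervals and floors cover counting error only. Alternatives used DESeq2 1.42.0, limma 3.58.1 (voom), other scalings and filters, and fewer libraries. The script was tested on simulated data.

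Each Kcn gene could be named. Values by library were meant for the highest member of a subfamily, for its largest rise and fall among genes of at least 1 CPM, and for members whose call rests on 1 library; other genes shown by library were chosen after their values were seen. The members and lists were chosen with earlier results of these data known, and the ratios between genes were chosen after their values were seen. Kcnmb4os1 and Kcnmb4os2 were left out as antisense transcripts with Kcnab3os, Kcnd3os and Kcnq1ot1. Some genes of the set and of the lists are counted in the totals but are not reported here by name.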

Additional observations from a re-analysis of the deposited data

How the results depend on the processing

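No alternative reversed the direction of a call on a Kcn gene, and each count of changed genes stayed within 1.5 times its value. With 1 library left out, 35 to 45 of the 82 genes changed from E11 to E13, 64 to 71 from E13 to E17, 39 to 50 from E17 to P1, 76 to 78 from E11 to P1, and 78 to 79 across the ages. With a replicate block for the library letter, 41, 67, 46 and 77 genes changed in the 4 comparisons and 78 across the ages. Same-letter correlations of deviations from the mean of an age ran from -0.343 to 0.33, and other-letter ones from -0.342 to 0.315. The highest was that of E11 C with E13 C. Of the same-letter pairs, 4 of 18 were over 0.1, and 5 of 12 libraries correlated best with their own letter. These values show no clear pairing by letter but cannot exclude one. DESeq2 called 47, 68, 47 and 77 genes and limma-voom 40, 68, 53 and 76. Scaling moved the median of all genes from E13 to E17 and from E11 to P1 to -0.12 and -0.13 with upper-quartile factors and to -0.22 and -0.26 with total reads only, from -0.04 in both. Among all changed genes, the share that rose in these steps was 49.8% and 49.2%, and 39.8% and 41.5% with total reads only. Kcng2, whose calls were lost in some of these runs, had 3 to 34 reads per library; Kcns2, whose calls were lost too, had 0 to 318.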
